A study of Mus musculus with 9 samples.

Results

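The ligands and receptors of axon guidance were followed in cultured mouse podocytes in 3 states: untreated, in high glucose, and with advanced glycation end products (AGEs), which are proteins that sugars have modified. The genes were taken by name from the deposited gene table: the class 3 to 7 semaphorins (Sema) with the plexins (Plxn) and neuropilins (Nrp), the ephrins (Efn) with the Eph receptors, the Slits with the Robo receptors, and the netrins (Ntn) with Unc5 and Dcc. Of 55385 genes in the table, 72 carried such a name. The 3 antisense transcripts of Plxna4 among them were left out because their transcript type was not protein coding, which left 69 genes. The transcript type field often listed several types, and a gene was kept when protein coding was among them. For 12 of the 69 it was the single type given. The semaphorin system held 31 of these genes (20 ligands and 11 receptors), the ephrin system 22 (8 and 14), the Slit system 7 (3 and 4) and the netrin system 9 (4 and 5).

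Podocytes are the epithelial cells that wrap the capillaries of the kidney glomerulus with interlocking foot processes. All 9 libraries came from the podocyte line MCP5 with the genotype WT, 3 in each group: control (labelled blank), high glucose at 50 mmol/L and AGEs at 400 µg/mL. The sources used here do not give the treatment time, how much glucose the control medium held, or whether osmolarity and the AGE carrier protein were controlled for. The library titles carry a number from 1 to 3 but do not state separate cultures, so the p-values rest on the spread among these 9 libraries alone, and that spread may be technical.

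Semaphorins are secreted or membrane-bound cues that act through plexins, and the secreted class 3 members mostly need a neuropilin as co-receptor. Ephrins sit on the cell surface and signal into the neighbouring cell through Eph receptor tyrosine kinases as well as back into their own cell. Slits bind Robo receptors, and netrins bind Dcc or Unc5 receptors. All these pathways act on the actin cytoskeleton and on adhesion, and several have described roles in podocytes: excess Sema3a damages the filtration barrier in mice, ephrin-B1 is a component of the slit diaphragm, and Robo2 binds nephrin through an adaptor.

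Total counts were 46284878 to 77242281 per library. On the first principal component of all genes (41.0% of the variance) the high glucose libraries lay at 85.8 to 90.2 and the other 6 libraries at -48.9 to -40.4. On the second (11.9%) AGEs library 3 stood apart at 82.8, against -46.2 and -23.1 for the other AGEs libraries. The cells were checked against marker genes. Of 10 podocyte markers 7 were abundant enough to test. Nphs1 (nephrin) had 280 to 7040 counts per library, whereas Wt1, a transcription factor of podocytes, was at 0 counts except for 11 in a single high glucose library.

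Levels between genes are given in the deposited FPKM, which is scaled to gene length. In control the most abundant member was the plexin Plxnb2, a receptor for class 4 semaphorins, at 42.6 ± 1.89 FPKM (mean ± SD, n = 3 libraries here and below). Next came the ephrin-A receptor Epha2 at 27.3 ± 0.404, its ligand Efna1 at 16.0 ± 0.273, the netrin receptor Unc5b at 15.3 ± 2.09, the secreted semaphorin Sema3c at 14.6 ± 2.65 and the ephrin-B receptor Ephb4 at 12.4 ± 1.18 FPKM. The libraries of Plxnb2 and Epha2 did not overlap with those of the next gene in this order, whereas Efna1, Unc5b, Sema3c and Ephb4 each overlapped with their neighbour. Levels of at least 10 FPKM on average were reached by 6 members in control, 8 in high glucose and 6 with AGEs, and levels of at least 1 FPKM by 28, 38 and 27. Plxnb2 kept the first place in all 3 groups. Efna1 moved from place 3 in control to place 2 in high glucose and place 5 with AGEs, Epha2 from place 2 to places 5 and 3, and Sema3e from place 10 to place 27 in high glucose.

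**Figure D1:**
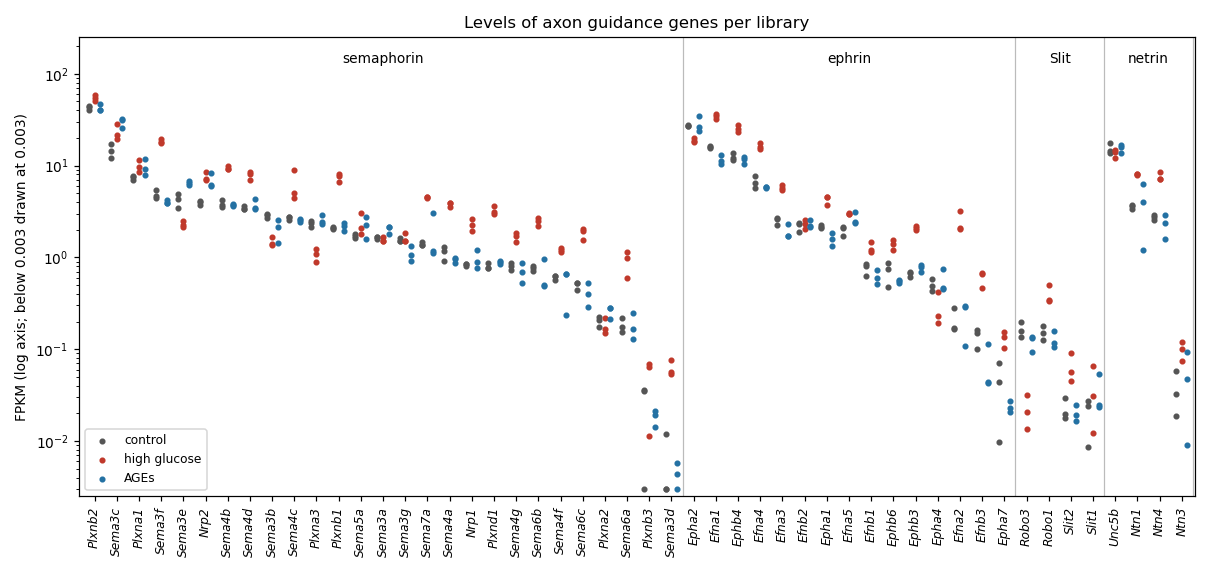
FPKM of each tested member (log axis) in every library, with genes grouped by system and ordered within it by mean level; each point is 1 library. The high glucose points stand above the control points for most genes, with Epha2, Sema3e, Sema3b, Plxna3, Epha4 and Robo3 below them.

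Of the 69 members, 50 had enough counts to be tested: 27 of 31 in the semaphorin system, 15 of 22 in the ephrin system, 4 of 7 in the Slit system and 4 of 9 in the netrin system. Of the other 19, the 9 genes Epha3, Epha5, Epha6, Epha8, Epha10, Unc5a, Unc5c, Unc5d and Sema5b had 0 counts in every library. The remaining 10 (Slit3, Robo2, Robo4, Ephb1, Ephb2, Ntn5, Dcc, Sema6d, Plxna4 and Plxnc1) had at most 16 counts in any library. Robo2, the Slit receptor tied to nephrin, had 0 counts in all control and high glucose libraries and 4, 11 and 0 counts in the AGEs libraries. Ephb1 had 4 counts in high glucose library 1 and 0 elsewhere. A count of 0 in a library allows up to 3 counts if each fragment adds 1 count, and more if a fragment adds several. Thus these genes were not detectable at this depth rather than shown to be absent. Sema3d passed the filter through its high glucose libraries alone, with 43, 34 and 37 counts there against 0, 0 and 8 in control and 4, 0 and 4 with AGEs. Its difference from control was not called (adjusted p = 0.0668), and it is included in the counts and medians of tested members.

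High glucose against control asks what raised glucose does to podocytes. Most tested ephrins (7 of 8), 9 of the 11 tested membrane-bound semaphorins and 9 receptors rose under high glucose, and 6 members were lower: Sema3b, Sema3e, Plxna3, Epha2, Epha4 and Robo3. In all, 34 of the 50 tested members passed the test (adjusted p under 0.05 over all 17680 genes tested), 28 higher and 6 lower. Among all genes tested 39.3% passed, 19.6% higher and 19.7% lower. The median log2 fold change was 0.92 over the 50 members and 0.03 over all genes. At least 2-fold changes made up 20 of the rises and 5 of the falls, where 13.7% of all genes passed and reached that size. The libraries of the 2 groups did not overlap for 43 of the 50, against 54.1% of all genes.

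Cell type marker lists were counted in high glucose too, where 19.6% of all genes tested were called higher and 19.7% lower. Of the tubular markers 4 of 4 tested rose (summed 202 to 216 CPM in control, 667 to 799.7 in high glucose, 177 to 282 with AGEs), as did 3 of 5 parietal epithelial markers (415 to 433, 1299.0 to 1479 and 389 to 519.6 CPM). Both tested neuron markers of 7 listed, Tubb3 and Syp, rose too (3.73 to 5.23, 11.1 to 18.6 and 4.65 to 7.91 CPM), and the neuron marker Rbfox3 and the tubular markers Slc34a1 and Umod had 0 counts in every library. Summed endothelial markers were 1.22 to 2.11, 3.57 to 4.80 and 1.19 to 1.69 CPM, with 1 of 2 tested higher, and leukocyte markers 77.5 to 87.1, 132.5 to 143 and 75.4 to 94.0 CPM, with 2 of 5 higher and 1 lower. Of 7 tested podocyte markers 3 rose (807 to 1117, 1113 to 1174 and 1225 to 1272 CPM). Mesangial and fibroblast markers summed to 21.01 to 24.2, 22.9 to 28.5 and 18.8 to 23.1 CPM, with 1 of 5 tested higher, and glia markers to 17.8 to 18.4, 13.7 to 16.8 and 15.2 to 16.9 CPM, with 0 of 3 tested past the threshold (2 at an unadjusted p under 0.05, as were 47.2% of all genes) and Sox10 and Olig2 at 0 counts. All 9 libraries came from 1 podocyte line, so these sums are levels of marker genes in that culture. Whether they reflect which cells were present or the RNA per cell was not tested, and bulk samples cannot tell these apart.

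**Figure D2:**
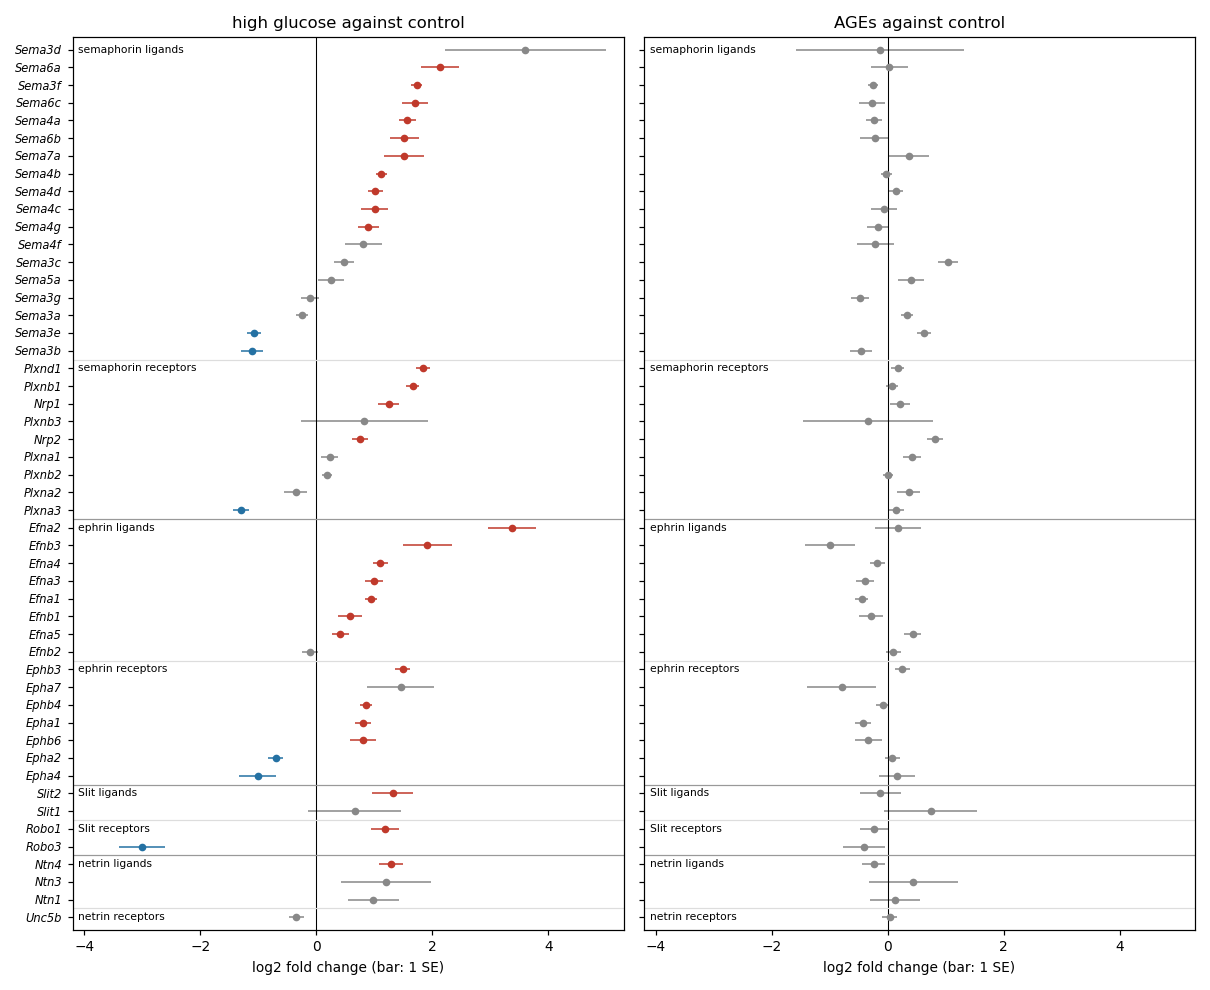
Log2 fold changes (points) with their standard errors (bars) for the 50 tested members, high glucose against control on the left and AGEs against control on the right; red and blue mark genes called higher and lower, grey those not called. The left panel has 28 red and 6 blue points, and the right panel has grey points only. The panels share the 3 control libraries.

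The systems differed in how many members were called, with no test of that difference made. Among all genes tested 39.3% were called in high glucose, 19.6% higher and 19.7% lower. In the ephrin system 13 of 15 tested members were called in high glucose (11 higher, 2 lower, median log2 fold change 0.86), and in the semaphorin system 17 of 27 (14 higher, 3 lower, median 0.90). The Slit system had 3 of 4 (2 higher, 1 lower) and the netrin system 1 of 4 (25%), which was higher. Over the 4 systems the calls covered 21 of 31 ligands (19 higher, 2 lower) and 13 of 19 receptors (9 higher, 4 lower). Within the semaphorins, the counts by class were as follows: 5 of 6 tested class 4 members, 3 of 3 class 6 members and Sema7a rose, all of them membrane-bound. Sema5a, also membrane-bound, was not called (log2 fold change 0.26, adjusted p = 0.41) and its groups overlapped. Of 7 class 3 members, which are secreted, 1 rose and 2 fell, a called share of 42.9% that is near that of all genes. The class 3 median was -0.10 and the class 4 median 1.01.

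Semaphorin ligands are given first, in CPM (counts scaled to the size of each library). The secreted Sema3f, which binds Nrp2, had 28.5, 26.6 and 32.9 CPM in control, 97.4, 102 and 93.8 under high glucose, and 25.5, 23.8 and 24.6 with AGEs. Its high glucose libraries were far above all others, and the AGEs libraries lay just under control without overlap. The rise was 3.33-fold (log2 fold change 1.74, SE 0.09, adjusted p = 2.43e-06). Sema3b, whose gene lies 72.27 kb from Sema3f on chromosome 9, went the other way, with 16.5, 14.7 and 15.9 CPM in control, 7.01, 6.66 and 8.16 under high glucose, and 14.3, 11.9 and 8.20 with AGEs. Each high glucose value was below each control value, at -1.11 on the log2 scale (SE 0.19, adjusted p = 0.0015). Sema3e, which binds Plxnd1 without a neuropilin, had 47.1, 52.2 and 37.3 CPM in control, 20.8, 21.1 and 23.2 under high glucose, and 72.7, 66.7 and 71.4 with AGEs. The 3 groups did not overlap, with high glucose lowest and AGEs highest. Against control it was 2.10-fold lower in high glucose, at -1.07 on the log2 scale (SE 0.12, adjusted p = 0.000137).

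Of the class 3 members with described podocyte roles, Sema3a had 26.7, 26.5 and 25.6 CPM in control, 21.7, 21.2 and 23.7 under high glucose, and 34.4, 28.8 and 35.7 with AGEs. The groups did not overlap, but neither treatment passed the test against control (log2 fold changes -0.24 with adjusted p = 0.0956, and 0.33 with adjusted p = 0.315). Sema3g, which podocytes make in the kidney, had 8.01, 8.40 and 8.05 CPM in control, 7.19, 6.99 and 8.59 under high glucose, and 6.94, 5.65 and 4.94 with AGEs. High glucose overlapped with control (log2 fold change -0.10, SE 0.16, adjusted p = 0.654), and its sign turned on the FPKM scale. Sema3c was the most abundant semaphorin, with 121, 142 and 99.6 CPM in control, 208, 142 and 155 under high glucose, and 212, 266 and 268 with AGEs. The highest control and the lowest high glucose library round to the same value, and every AGEs library was above both other groups. In high glucose its log2 fold change of 0.48 (SE 0.17) missed the threshold at an adjusted p of 0.0511. DESeq2 gave an adjusted p of 0.0163, and leaving out control library 2 or high glucose library 2 gave 0.0310 and 0.0356.

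Of the membrane-bound class 4 semaphorins 5 of 6 rose in high glucose. Sema4a had 5.83, 7.26 and 8.23 CPM in control, 22.3, 21.3 and 19.6 under high glucose, and 6.22, 6.19 and 5.67 with AGEs. Sema4b had 24.5, 23.2 and 27.5 CPM in control, 58.4, 52.5 and 53.0 under high glucose, and 24.3, 24.0 and 25.5 with AGEs. Sema4d, a ligand of Plxnb1, had 29.7, 29.4 and 32.3 CPM in control, 55.9, 63.9 and 65.8 under high glucose, and 30.4, 30.8 and 39.8 with AGEs. For all 3 genes the high glucose libraries lay above every library of the other groups. The rises against control were 2.97-fold for Sema4a (log2 fold change 1.57, SE 0.14, adjusted p = 3.86e-05), 2.18-fold for Sema4b (1.12, SE 0.09, adjusted p = 2.39e-05) and 2.03-fold for Sema4d (1.02, SE 0.12, adjusted p = 0.000176). Sema4c and Sema4g rose by 1.01 and 0.90 on the log2 scale, and Sema4f was at 0.81 with an adjusted p of 0.0757. The size of the Sema4c rise leaned on high glucose library 2, at 41.9 CPM in a group of 28.8 ± 11.4. Over the alternative fits its log2 fold change went down to 0.63, and it was called in each. In the class 6 group, Sema6a, Sema6b and Sema6c rose 4.40-fold, 2.87-fold and 3.26-fold from low levels (1.86 to 3.50 CPM on average in control). Sema7a, a membrane-anchored semaphorin that signals through integrins and Plxnc1, rose 2.84-fold (log2 fold change 1.51, SE 0.35, adjusted p = 0.00702), while Plxnc1 was too low to test.

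Among the semaphorin receptors, Plxnd1 had 6.60, 6.44 and 7.34 CPM in control, 24.1, 21.9 and 26.9 under high glucose, and 7.83, 7.24 and 7.89 with AGEs. Plxnb1, the receptor of Sema4d, had 23.7, 22.3 and 23.5 CPM in control, 65.6, 75.1 and 79.4 under high glucose, and 24.6, 21.6 and 27.0 with AGEs. In both genes only the high glucose libraries stood out, by 3.58-fold for Plxnd1 (log2 fold change 1.84, SE 0.12, adjusted p = 5.97e-06) and 3.17-fold for Plxnb1 (1.66, SE 0.11, adjusted p = 6.94e-06). Plxna3, a partner of neuropilins in class 3 signalling, went down, from 21.6, 22.7 and 19.6 CPM in control to 7.34, 8.79 and 9.84 in high glucose, with 26.5, 21.4 and 22.8 under AGEs. Its fall was 2.46-fold (log2 fold change -1.30, SE 0.14, adjusted p = 9.32e-05). The co-receptor Nrp1 had 9.28, 9.43 and 9.72 CPM in control, 19.7, 22.1 and 25.8 under high glucose, and 10.2, 8.72 and 14.0 with AGEs, a 2.38-fold rise in high glucose, at 1.25 on the log2 scale (SE 0.18, adjusted p = 0.000489). The other co-receptor, Nrp2, was called in high glucose as well (0.75, SE 0.14, adjusted p = 0.00211), from 55.3, 50.6 and 56.2 CPM to 85.1, 85.1 and 103. With AGEs it had similar values of 85.2, 82.8 and 116 CPM.

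The abundant plexins Plxnb2 and Plxna1 were not called. Plxnb2 had 363, 382 and 396 CPM in control, 405, 424 and 463 under high glucose, and 361, 361 and 431 with AGEs. Although its high glucose libraries did not overlap with control, the log2 fold change of 0.18 (SE 0.09) was not called (adjusted p = 0.136). A test of the FPKM with limma called it, with an adjusted p of 0.00861 on log2(FPKM + 1). Plxna1, which with Nrp1 transmits Sema3a signals, had 73.1, 80.0 and 78.9 CPM in control, 79.9, 87.8 and 104 under high glucose, and 97.4, 83.4 and 128 with AGEs. Its libraries in high glucose overlapped with control (0.23 on the log2 scale, SE 0.15, adjusted p = 0.28).

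All 5 tested ephrin-A ligands, which are tethered to the membrane by a lipid anchor, rose in high glucose. Efna1 had 34.1, 32.8 and 34.3 CPM in control, 69.6, 64.7 and 60.0 under high glucose, and 21.8, 24.0 and 28.4 with AGEs. The groups were separate, with high glucose above and AGEs below control, and the rise was 1.92-fold (log2 fold change 0.94, SE 0.11, adjusted p = 0.000145). Efna2 was nearly silent in control at 0.691, 0.407 and 0.436 CPM and reached 4.55, 6.90 and 4.48 in high glucose, with 0.734, 0.724 and 0.277 with AGEs. This 10.3-fold rise was the largest among the called members (log2 fold change 3.37, SE 0.42, adjusted p = 0.000206). Efna3 went from 7.66, 6.29 and 7.41 CPM to 14.3, 13.3 and 15.1 (a log2 fold change of 1.0 with SE 0.16 and adjusted p = 0.000848), with 4.80, 6.62 and 4.95 under AGEs. Efna4 went from 11.9, 10.6 and 14.5 CPM to 25.2, 25.7 and 28.5 (1.10, SE 0.13, adjusted p = 0.000154), with 10.9, 10.5 and 11.2 under AGEs. Efna1, Efna3 and Efna4 lie next to each other on chromosome 3, with gaps of 32.76 kb and 10.43 kb, all on the minus strand. Efna5 was called narrowly (log2 fold change 0.42, adjusted p = 0.0488), and leaving out any 1 of the 6 libraries raised its adjusted p to 0.0618 or more.

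The ephrin-B ligands, which span the membrane, were mixed. Efnb1, the slit diaphragm component, had 3.39, 2.50 and 3.20 CPM in control, 5.28, 4.06 and 4.26 under high glucose, and 2.93, 2.39 and 2.11 with AGEs. Its high glucose libraries were above control, but the call was at the edge (log2 fold change 0.58, SE 0.21, adjusted p = 0.0498) and was lost when any 1 of the 6 libraries was left out, with adjusted p-values of 0.0637 to 0.171. Efnb3 rose 3.77-fold from 0.517 ± 0.118 CPM, and Efnb2 was at -0.10 on the log2 scale (adjusted p = 0.594) with overlapping groups.

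Eph receptors moved in both directions. Epha2 had 150.1, 144 and 148 CPM in control, 87.9, 88.9 and 95.5 under high glucose, and 143, 130.3 and 194 with AGEs. Every high glucose library was below every other library, and the fall against control was 1.62-fold (log2 fold change -0.70, SE 0.13, adjusted p = 0.00231). Epha4 fell as well (log2 fold change -1.01, SE 0.32, adjusted p = 0.0317), but without control library 1, control library 3, high glucose library 1 or high glucose library 2 it did not pass, with adjusted p-values up to 0.103. Ephb4, the main receptor of ephrin-B2, rose from 64.7, 60.6 and 73.7 CPM to 121, 109 and 129, with 55.6, 63.5 and 68.6 under AGEs. Its rise was 1.81-fold (log2 fold change 0.86, SE 0.11, adjusted p = 0.000252). Ephb3 rose 2.80-fold, from 4.76, 5.23 and 5.21 CPM to 13.6, 14.1 and 14.9 (log2 fold change 1.49, SE 0.13, adjusted p = 2.82e-05), with 5.35, 6.13 and 6.67 under AGEs. Epha1 had 9.59, 9.58 and 10.2 CPM in control, 18.5, 15.0 and 18.0 under high glucose, and 8.47, 7.21 and 6.25 with AGEs (0.81 in high glucose, SE 0.14, adjusted p = 0.00155). Whether counting used strand was not given, and Epha1, Efna3 and Efna4 share 6.01%, 14.1% and 10.5% of their exon bases with a gene on the opposite strand. For Epha1 that gene, Zyx, had 164067 counts over all libraries against 7086, so the value of Epha1 is uncertain. For Efna3 it was Gm15998, with 2753 counts against 5536, and for Efna4 it was 4731419I09Rik, with 1146 against 10212. How far these reads enter the values of Efna3 and Efna4 was not tested.

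The Slit system was expressed at low levels. Slit2, the ligand, had 0.597, 0.901 and 0.536 CPM in control (38, 62 and 32 counts), 1.22, 1.52 and 2.35 under high glucose (101, 77 and 187 counts), and 0.749, 0.522 and 0.597 with AGEs. High glucose did not overlap with control (log2 fold change 1.32, SE 0.36, adjusted p = 0.0153), but leaving out control library 1, control library 3 or high glucose library 3 gave adjusted p-values of 0.0565, 0.0543 and 0.0731. Its receptor Robo1 had 2.43, 3.43 and 2.93 CPM in control, 5.72, 5.75 and 8.49 under high glucose, and 2.05, 2.29 and 3.10 with AGEs, a 2.27-fold rise (log2 fold change 1.18, SE 0.24, adjusted p = 0.0037). Robo3, a divergent Robo receptor, was the member with the deepest fall, from 1.27, 1.09 and 1.59 CPM (81, 75 and 95 counts) to 0.229, 0.158 and 0.101 (19, 8 and 8 counts), with 1.12, 1.09 and 0.772 under AGEs. It was 8.01-fold lower, at -3.00 on the log2 scale (SE 0.40, adjusted p = 0.000318). Robo1 made up 47.5% of the summed FPKM of the Slit receptors in control and 94.7% in high glucose.

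In the netrin system Ntn4, a netrin that binds laminin, was the single member called. It had 12.1, 12.5 and 11.1 CPM in control, 32.8, 26.9 and 27.3 under high glucose, and 10.3, 6.95 and 13.0 with AGEs. Its rise was 2.44-fold (log2 fold change 1.28, SE 0.20, adjusted p = 0.000916). Ntn1 (netrin-1) had tight values of 27.0, 26.1 and 24.6 CPM in control and of 53.0, 50.1 and 50.9 with high glucose, but 29.4, 8.94 and 46.7 with AGEs. Its log2 fold change of 0.99 in high glucose carried an SE of 0.44 and was not called with the spread shared over all 3 groups (adjusted p = 0.106). With the AGEs libraries left out of the fit its adjusted p was 0.000104. Unc5b, the sole receptor with enough counts among Dcc and the Unc5 genes, had 99.9, 103 and 128 CPM in control, 77.9, 88.5 and 94.6 under high glucose, and 98.2, 122 and 119 with AGEs. All its high glucose libraries were below control, at an adjusted p of 0.0547 (log2 fold change -0.34, SE 0.13). DESeq2 called it with an adjusted p of 0.0393.

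For 6 ligands, each set beside 1 receptor it binds, the results in high glucose are those of each gene's own test given above. The 6 pairs were chosen by hand, and most of these ligands and receptors have further partners among the members. Sema3e fell where its receptor Plxnd1 rose, and Efna1 rose where its receptor Epha2 fell. Sema4d and Plxnb1 both rose, as did Sema3f and Nrp2. Ephb4 rose while Efnb2 had a log2 fold change of -0.10 that did not pass. For Ntn1 and Unc5b the log2 fold changes were 0.99 and -0.34, and neither passed.

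**Figure D3:**
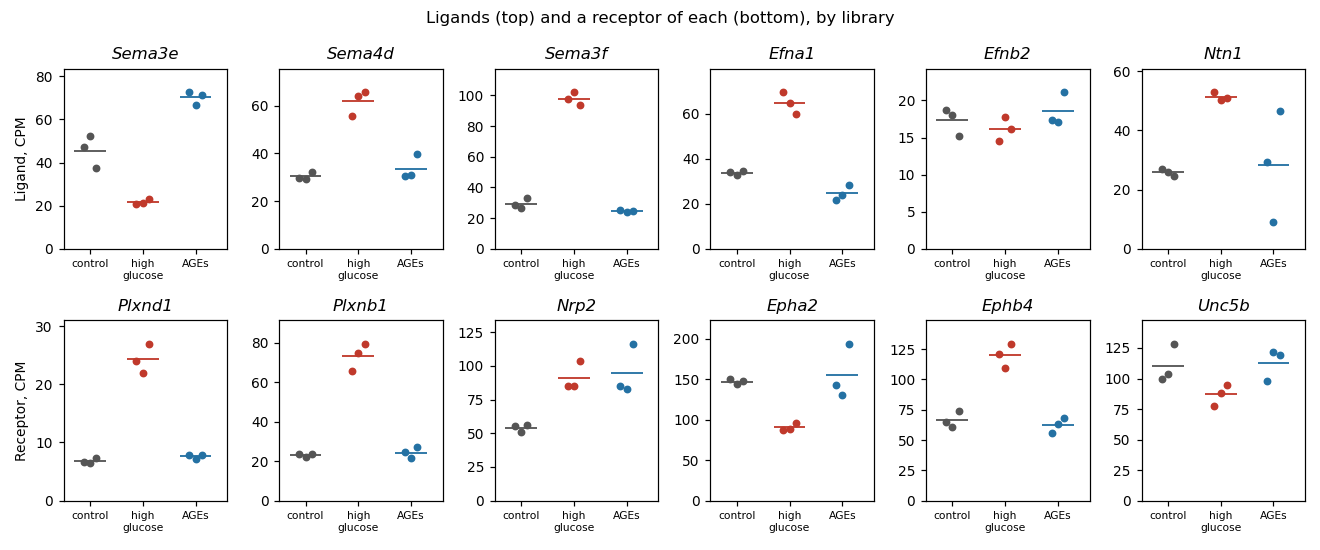
CPM in each library (points) and the group mean (line) for 6 ligands (top) and a receptor of each (bottom), with axes starting at 0. In high glucose Sema3e is low and Plxnd1 high, and Efna1 is high and Epha2 low. Sema4d with Plxnb1 and Sema3f with Nrp2 are high together there. Nrp2 is also above control with AGEs, where Sema3f is not.

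The promoters of Sema3e, Plxnd1, Efna1 and Epha2 are shown because each of these 2 pairs joins a member that rose to one that fell. They run from 250 bases before to 50 bases after the RefSeq start of each gene on its own strand (build GRCm38.p6). Capitals mark the GC box (GGGCGG), the E-box (CACGTG) and the CRE core (TGACGT), searched on both strands with no overlap between different motifs. The Sema3e promoter is at chr5:14025026-14025325 on the plus strand, and that of Plxnd1 at chr6:115994956-115995255 on the minus strand. The Efna1 promoter is at chr3:89280902-89281201 on the minus strand, and that of Epha2 at chr4:141300971-141301270 on the plus strand.
Sema3e: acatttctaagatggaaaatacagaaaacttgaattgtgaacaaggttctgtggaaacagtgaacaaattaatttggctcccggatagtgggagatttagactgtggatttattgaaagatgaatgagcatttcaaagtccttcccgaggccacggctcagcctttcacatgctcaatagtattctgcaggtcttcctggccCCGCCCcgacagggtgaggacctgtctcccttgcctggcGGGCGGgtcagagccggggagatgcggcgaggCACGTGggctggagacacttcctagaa
Plxnd1: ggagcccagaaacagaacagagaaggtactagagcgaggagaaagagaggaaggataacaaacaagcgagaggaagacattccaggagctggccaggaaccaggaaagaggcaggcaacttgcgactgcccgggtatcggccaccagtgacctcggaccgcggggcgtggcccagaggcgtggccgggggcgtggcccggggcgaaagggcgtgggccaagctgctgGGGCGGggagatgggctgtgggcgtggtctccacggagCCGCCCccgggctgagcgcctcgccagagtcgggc
Efna1: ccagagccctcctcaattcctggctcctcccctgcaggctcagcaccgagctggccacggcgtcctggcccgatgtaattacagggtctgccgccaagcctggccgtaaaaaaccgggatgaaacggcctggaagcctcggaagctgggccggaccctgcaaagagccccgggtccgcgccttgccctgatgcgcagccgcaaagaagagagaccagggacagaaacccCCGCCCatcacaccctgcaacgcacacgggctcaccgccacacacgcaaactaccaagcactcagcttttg
Epha2: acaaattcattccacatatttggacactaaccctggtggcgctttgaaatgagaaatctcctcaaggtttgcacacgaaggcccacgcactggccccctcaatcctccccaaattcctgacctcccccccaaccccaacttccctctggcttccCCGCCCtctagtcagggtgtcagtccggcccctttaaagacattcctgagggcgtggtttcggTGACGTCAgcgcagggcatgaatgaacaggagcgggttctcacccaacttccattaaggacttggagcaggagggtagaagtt
All 4 held at least 1 GC box. The Sema3e promoter also held 1 E-box, and that of Epha2 held 1 CRE palindrome, which counts as 2 cores, 1 on each strand. Of the 69 members 59 had a promoter in the RefSeq table, and 43 of these (72.88%) held a GC box, against 35.66% of all 32851 promoters of the table. The GC box was in 84% of the 25 promoters of members that rose, in all 5 of members that fell and in 69.23% of the 13 of tested members that were not called. The median GC content was 65% over the 59 promoters and 52.67% over all. The E-box was in 5.085% of member promoters and 7.15% of all, the CRE core in 6.78% and 7.513%, and the TATA box (TATAAA) in 3.39% and 13.62%.

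Levels were also summed over the ligands and over the receptors of each system, members only. Semaphorin ligands summed to 46.8 ± 2.37 FPKM in control, 90.6 ± 1.37 in high glucose and 62.7 ± 3.34 with AGEs, and their receptors to 60.3 ± 2.15, 86.15 ± 8.32 and 65.7 ± 7.33. Ephrin ligands summed to 30.4 ± 1.23, 66.1 ± 0.605 and 25.0 ± 1.71 FPKM and Eph receptors to 43.7 ± 1.68, 52.4 ± 3.51 and 43.3 ± 6.11. Thus the summed ephrins were below the summed Eph receptors in control and above them in high glucose. Netrins summed to 6.36 ± 0.319, 15.7 ± 0.862 and 6.17 ± 3.14 FPKM against 15.3 ± 2.09, 13.6 ± 1.52 and 15.4 ± 1.65 for Dcc and the Unc5 receptors, nearly all of it Unc5b. Neo1 (neogenin), a further netrin receptor, is outside these sums and had 10.8 ± 0.452, 10.7 ± 0.823 and 11.7 ± 0.687 FPKM, so the sums do not show which arm of the netrin system was larger. Slits stayed at 0.0425 ± 0.0128, 0.108 ± 0.0142 and 0.0541 ± 0.0173 FPKM and Robo receptors at 0.322 ± 0.0347, 0.414 ± 0.0900 and 0.259 ± 0.0138. Single genes carried much of these sums: Sema3c made up 31.3% of the semaphorin ligands in control and 47.4% with AGEs, Plxnb2 70.8% of the semaphorin receptors in control, and Epha2 62.4% of the Eph receptors in control and 36.2% in high glucose. These sums were not tested. FPKM lacks the between-library scaling of the CPM, and on it all genes had a median log2 difference in high glucose of 0.17 with a pseudocount of 0.1 and 0.08 with 1, against 0.03 in the count test.

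**Figure D4:**
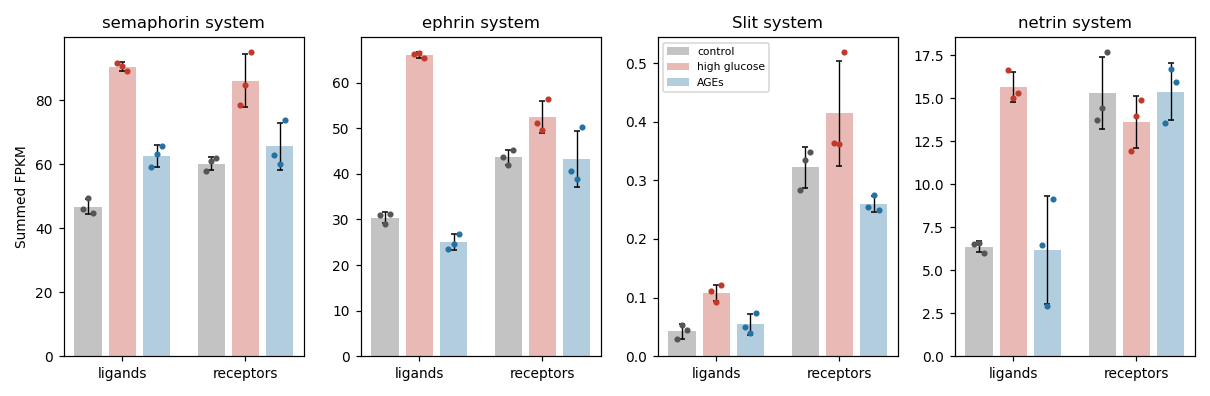
Summed FPKM of ligands and receptors in each system, with bars for the group mean, error bars for the SD over 3 libraries and points for the libraries; each panel has its own axis starting at 0. Ephrin ligands go from 30.4 to 66.1 FPKM in high glucose, past their receptors at 52.4, and the Slit system stays below 1 FPKM.

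AGEs against control asks what glycated proteins do to the same cells. No member was called: 0 of 50, where 0.0848% of all genes tested (15 genes) passed. At an unadjusted p under 0.05 there were 13 members, against 12.4% of all genes, and the lowest adjusted p was 0.114, for Sema3c. For 12 of 50 members the groups did not overlap, against 19.2% of all genes, and the median log2 fold change was -0.01. DESeq2 called 4 members. The share of all genes given above is that of edgeR, so it is no background for these 4 calls. They were Sema3c (log2 fold change 1.04, adjusted p = 1.48e-06), Nrp2 (0.81, adjusted p = 4.97e-05), Sema3e (0.63, adjusted p = 0.000607) and Efna1 (-0.45, adjusted p = 0.0198).

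Sema3c was at 249 ± 31.6 CPM with AGEs against 121 ± 20.996 in control (edgeR log2 fold change 1.04, SE 0.17, adjusted p = 0.114). Nrp2 had 85.2, 82.8 and 116 CPM with AGEs, all above control, at 0.81 on the log2 scale (SE 0.14, adjusted p = 0.117). Among the secreted class 3 semaphorins 6 of 7 had groups that did not overlap, in both directions. The groups did not overlap for 12 of all 50 members and 19.2% of all genes. Sema3a, Sema3c and Sema3e were higher with AGEs and Sema3b, Sema3f and Sema3g lower, by values that did not pass the test. The remaining one, Sema3d, was at most 0.134 CPM in either group. AGEs library 3 was the highest of its group for Sema7a (4.29, 4.58 and 11.9 CPM), Epha2 and Ntn1.

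AGEs against high glucose sets the treatments beside each other, with the high glucose libraries shared with the first comparison and no osmotic or carrier control. Of the 50 members 38 were called (10 higher, 28 lower), where 39.9% of all genes were called, 19.7% higher and 20.2% lower. The median log2 fold change was -1.05, against -0.02 for all genes, and the libraries did not overlap for 41 members, against 52.5% of all genes. With limma on the FPKM scales the share of higher calls among the called members was 16.2% and 13.9% in place of 26.3%. The largest differences by p were those of Sema3f (-1.99, SE 0.10, adjusted p = 1.06e-06), Plxnb1 (-1.59, adjusted p = 7.5e-06) and Plxnd1 (-1.67, adjusted p = 8.77e-06) among those lower with AGEs. Among those higher with AGEs it was Sema3e (1.69, SE 0.12, adjusted p = 1.04e-05). Sema3a differed between the treatments (0.57, SE 0.10, adjusted p = 0.00204), although it was called in neither against control. On log2(FPKM + 0.1) with limma this call was lost (adjusted p = 0.0623). For Nrp2 and Efna5 the treatments differed by 0.06 (SE 0.14) and 0.01 (SE 0.15) on the log2 scale, and neither passed the test. Sema3c (0.56, adjusted p = 0.0269) and Unc5b (0.38, adjusted p = 0.038) were higher with AGEs, but Sema3c lost its call without high glucose library 2 or 3 or AGEs library 2 or 3 (adjusted p up to 0.0963), and Unc5b without high glucose library 1 or 2 or AGEs library 2 or 3 (up to 0.128).

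Downstream and accessory genes of axon guidance were counted as a list of 62 that holds no member. In high glucose 20 of the 52 tested were called (17 higher, 3 lower), a share of 38.5% that is near the 39.3% of all genes. Over all genes 19.6% were called higher and 19.7% lower, so the called genes of this list were mostly rises, as among the members. Those with the smallest p among the rises were Rgs3, a regulator of G protein signalling that binds ephrin-B (11.1 ± 0.811 to 25.4 ± 1.76 CPM, adjusted p = 4.71e-05), and the exchange factors Dock1 (27.1 ± 0.984 to 60.6 ± 5.12 CPM, adjusted p = 0.00015) and Vav2 (25.6 ± 2.31 to 53.4 ± 5.91 CPM, adjusted p = 0.000235). The falls were Rnd1, which binds plexins (129.9 ± 13.6 to 63.0 ± 4.70 CPM, adjusted p = 5.02e-05), the kinase Fyn (67.0 ± 1.05 to 46.1 ± 1.24 CPM, adjusted p = 0.000446) and the adhesion molecule L1cam (74.5 ± 3.56 to 58.6 ± 5.19 CPM, adjusted p = 0.0183). With AGEs 0 of the 52 were called against control, where 0.0848% of all genes were. At an unadjusted p under 0.05 there were 8 of the 52, against 12.4% of all genes. By the KEGG axon guidance term that the deposited table carries, 50 of 99 tested genes outside the members were called in high glucose (41 higher, 9 lower). This was 50.5%, against 39.3% of all genes.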

How the data were processed

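RNA sequencing of 9 libraries gave 1 table. The authors deposited whole-number counts and FPKM values per gene for each library, per the file headers, with an FPKM of 0.0001 where the count is 0. Cutadapt 1.9, FastQC and GRCm38 were used, per the submitters' processing notes; the sources used here name no aligner, counting tool, annotation release or strand setting. Low counts fell on 4 and 8 (9186 and 4896 entries) more often than on 3 and 7 (2519 and 1632), so 1 fragment may have added more than 1 count. Intervals and floors cover counting error only.

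Counts were tested with edgeR 4.0.16 (glmQLFit and glmQLFTest, R 4.3.3), after filterByExpr (17680 genes) and TMM scaling (factors 0.935 to 1.10), with 3 group means, 9 libraries and no covariate. Tests were two-sided, adjusted by Benjamini-Hochberg over all genes tested, and calls were made under an adjusted p of 0.05. The procedure was run on simulated data with less spread and fewer changed genes than here, so that run does not give its error rates in these data. DESeq2 1.42.0 and limma 3.58.1 were alternatives. Replicate libraries differed by more than sampling noise (chi-square per degree of freedom 44.1 to 101). Genes described with every library's value were, in each system, up to 8 called members (5 in the Slit and netrin systems) with the smallest p in high glucose and a mean FPKM of at least 0.5 in a group, the 3 most abundant members, and members with a described role in podocytes. Sema3b, Nrp2 and Sema7a were added after their values were seen. Members, marker lists and tests were chosen with earlier results of these data known.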

Additional observations from a re-analysis of the deposited data

How the results depend on the processing

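In high glucose against control, 30 to 39 members were called under every alternative in place of 34: 39 with DESeq2, 32 with no filter on low counts, 37 with only the 2 groups compared, and 30 to 33 when 1 library was left out. Of the 34 calls, 29 held in every fit that left out 1 library; the other 5 were Efna5, Efnb1, Epha4, Ephb6 and Slit2, and all 34 kept their sign in every alternative. For AGEs against control the count was 4 with DESeq2 and 0 under the others, each left-out library included. For AGEs against high glucose it was 31 to 39 in place of 38, and 31 to 38 when 1 library was left out; 31 of these 38 calls held in every such fit, and those of Epha4, Plxna2, Sema3b, Sema3c, Sema4f, Sema7a and Unc5b did not. The log2 fold change of Sema3g in high glucose turned to 0.043 on log2(FPKM + 1) and 0.064 on log2(FPKM + 0.1), with adjusted p-values of 0.753 and 0.791; the cause was not tested. Over all genes, 49.9% of calls in high glucose were higher with edgeR, against 68.6% and 67.9% with limma on those scales. The replicate numbers did not pair the libraries (correlations of same-numbered libraries from -0.067 to 0.084); with the replicate block, 34, 0 and 37 members were called in the 3 comparisons. Robo2, Ephb1 and the other members below the filter could not be compared at this depth.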
